A study of Mus musculus with 4 samples.

Results

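Collagens, laminins and integrins are the chains from which the extracellular matrix and its receptors are built, and their RNA was followed in day 12-JB1 cells. Members were chosen by gene symbol: every collagen chain named Col with a number, a and a number, every laminin alpha, beta and gamma chain, and every integrin alpha and beta chain. *Lama1*, *Lamb1*, *Col4a1* and *Col4a2* were left out of the choice. The rule found 77 of 55602 annotated genes, namely 42 collagens, 9 laminins, 18 integrin alpha chains and 8 integrin beta chains. No measured value entered the rule.

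JB1 is a male hybrid embryonic stem cell (ESC) line with a *M. m. molossinus* JF1 mother and a C57BL/6 father. Wild-type (WT) JB1 cells and 1 JB1-derived *Zfp57*-/- line, which lacks a zinc-finger protein that keeps methylation at imprinting control regions, were taken through in vitro corticogenesis. All cells had been kept as ESCs with 3 µM CHIR99021, were differentiated in defined medium, received 1 µM cyclopamine, an inhibitor of sonic hedgehog signalling, from day 2 to day 10, and were harvested at day 12. RNA-seq libraries were made from total RNA of 2 replicates per genotype after removal of ribosomal RNA, and were stranded and paired-end. Since a single mutant line was used, an effect of the genotype and a difference between lines cannot be told apart, and p-values measure only the spread between these samples.

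Collagens are trimers whose chains wind around one another. A glycine as the 1st of every 3 residues makes this possible, because no larger side chain fits in the core of the helix. Fibrillar collagens form the cables of connective tissue, collagen IV chains form the net of basement membranes, and other collagens bind to fibrils, anchor epithelia or span the cell membrane. Laminins are trimers of 1 alpha, 1 beta and 1 gamma chain that assemble into a sheet at the cell surface, and integrins are dimers of 1 alpha and 1 beta chain that bind these ligands and link them to actin or keratin filaments. In the developing cortex the radial glia hold on to a laminin-rich basement membrane under the pia through their end-feet.

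The glycine repeat can be read directly in the coding sequences (GENCODE vM21, GRCm38), which were examined because the fibrillar and network chains below differ in it. A glycine codon starts with GG. In the stretches of 33 codons given here, glycine codons that lie in frame are in capitals, the strand is that of the gene, and the coordinates span the introns in between. *Col3a1*, the fibrillar chain with the highest level in these cells, is shown from the start of its longest unbroken run, and the chains with the largest decrease among collagens that had at least 20 counts per library (*Col4a6* and *Col4a5*) and *Col7a1* are shown across the end of theirs.
Col3a1 (chr1:45323762-45325813, plus strand, codons 164 to 196): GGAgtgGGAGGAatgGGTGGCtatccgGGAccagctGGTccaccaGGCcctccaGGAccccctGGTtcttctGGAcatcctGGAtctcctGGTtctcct
Col4a5 (chrX:141669657-141673354, plus strand, codons 1357 to 1389): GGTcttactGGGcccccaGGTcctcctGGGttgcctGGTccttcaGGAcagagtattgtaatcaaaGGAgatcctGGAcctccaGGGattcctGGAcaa
Col4a6 (chrX:141188335-141189365, minus strand, codons 939 to 971): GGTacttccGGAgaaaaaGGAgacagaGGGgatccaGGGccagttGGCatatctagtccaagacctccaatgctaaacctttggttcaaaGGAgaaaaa
Col7a1 (chr9:108981318-108982371, plus strand, codons 2725 to 2757): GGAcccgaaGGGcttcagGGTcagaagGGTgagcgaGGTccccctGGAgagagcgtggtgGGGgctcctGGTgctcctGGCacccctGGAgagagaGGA
In *Col3a1* the longest run of glycine triplets held 344 triplets. In *Col4a5* and *Col4a6* the longest runs held 42 and 45 triplets, and the repeat was broken into 23 and 25 runs of at least 5 triplets. *Col7a1* had 20 such runs, the longest of 75 triplets. All 42 collagens had at least 1 run. The chains whose RNA differed most between genotypes were not fibrillar ones, as the values below show.

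The bulk table held between 7663520 and 10337082 counts per library. Replicates differed by more than counting noise, by 27.6 times in WT and 5.97 times in *Zfp57*-/- cells (mean squared deviation relative to the noise). *Zfp57* itself had 392 and 249 counts in WT and 158 and 144 in *Zfp57*-/- cells, and its log2 fold change was -1.19 ± 0.32 (SE; edgeR's quasi-likelihood test, adjusted p = 0.0225). The deletion leaves part of the transcript, so that reads from the rest of the gene do not check the label. Of 10 neuron markers 9 were lower and of 10 pluripotency markers 9 were higher in *Zfp57*-/- cells. The neuron list summed to 1712 and 2197 CPM (counts scaled to library size, as edgeR gives them) in WT and to 261 and 214 CPM in *Zfp57*-/- cells. For the pluripotency list the sums were 73.1 and 146 against 1935 and 1777 CPM. Among 8 epithelial markers 5 were higher (303 and 448 against 1542 and 1830 CPM, with *Krt14* at 0 in WT and *Krt5* at 0 in *Zfp57*-/- cells). In bulk RNA, fewer cells of a type and less RNA per cell cannot be told apart. The part of these cell type differences in the values below was not tested.

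**Bulk levels**, counted over both alleles, answered which chains differed between the genotypes. A total count above 8 over the 4 libraries was reached by 71 members, of which 11 were higher and 14 lower in *Zfp57*-/- cells (edgeR's quasi-likelihood test, Benjamini-Hochberg adjusted p below 0.05). Among all 19995 genes tested, 13% were higher, 14.6% lower and 27.6% changed in either direction, and the members' share was 35.2%. The median log2 fold change was 0.20 over the tested members and -0.01 over all tested genes. The sign of the members' median rested on the WT libraries and the scale, since it was 0.55 without WT replicate 1, -0.09 without WT replicate 2, 0.47 with a correction for gene length and -0.59 with *Actb* as the scale. *Col4a4*, *Col10a1*, *Col28a1*, *Itgad*, *Itgam* and *Itgax* had too few counts to be tested. By class, 3 of 39 tested collagens were higher and 8 lower, 2 of 9 laminins were higher and 4 lower, 2 of 15 integrin alpha chains were higher and 1 lower, and 4 of 8 integrin beta chains were higher and 1 lower.

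**Figure D1:**
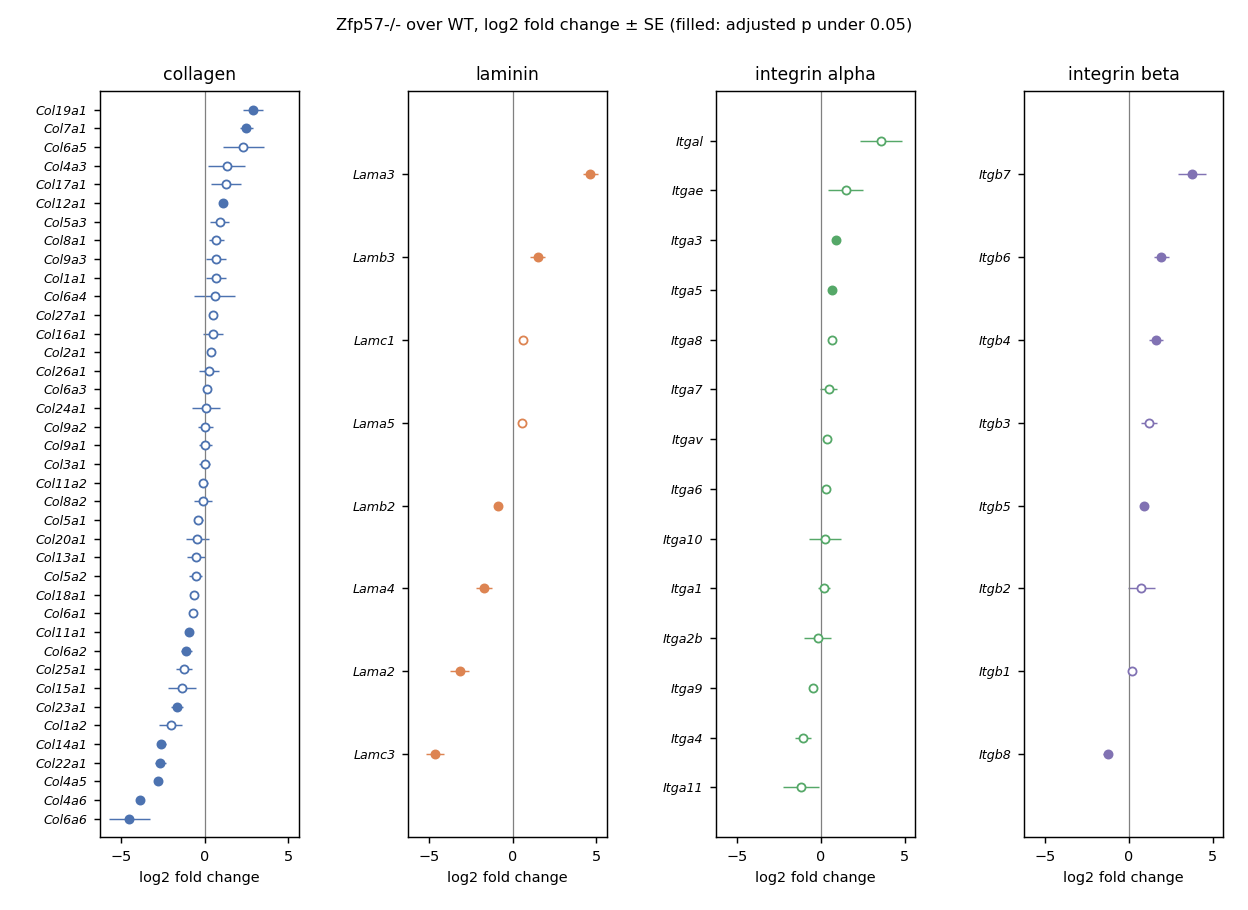
Log2 fold change of tested members between *Zfp57*-/- and WT cells (x axis, bars are SE from edgeR, 2 replicates per genotype), with 1 panel per class and filled points for an adjusted p below 0.05. *Itga2* is not drawn because it had 0 counts in both *Zfp57*-/- libraries. The largest values on the 2 sides are those of *Lama3* (4.64) and *Lamc3* (-4.64).

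In each of the 25 members past the threshold, the 2 WT libraries and the 2 *Zfp57*-/- libraries did not overlap in CPM. These members were picked by a test on the same libraries, so this separation is no further support. Some members short of the threshold were also separated, among them *Lamc1*, *Itgb1*, *Lama5* and *Col18a1*, and others, such as *Col3a1*, overlapped. With *Actb* as the scale, 1 member (*Lama3*) was higher and 18 were lower, against 2.43% and 15% of all genes. *Actb* itself had 14634 and 37665 counts in the WT replicates, and this scale moved the median of all genes by -0.67 on the log2 scale. With a correction for gene length, 18 members were higher and 12 lower, against 14.2% and 14.2% of all genes.

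**Figure D2:**
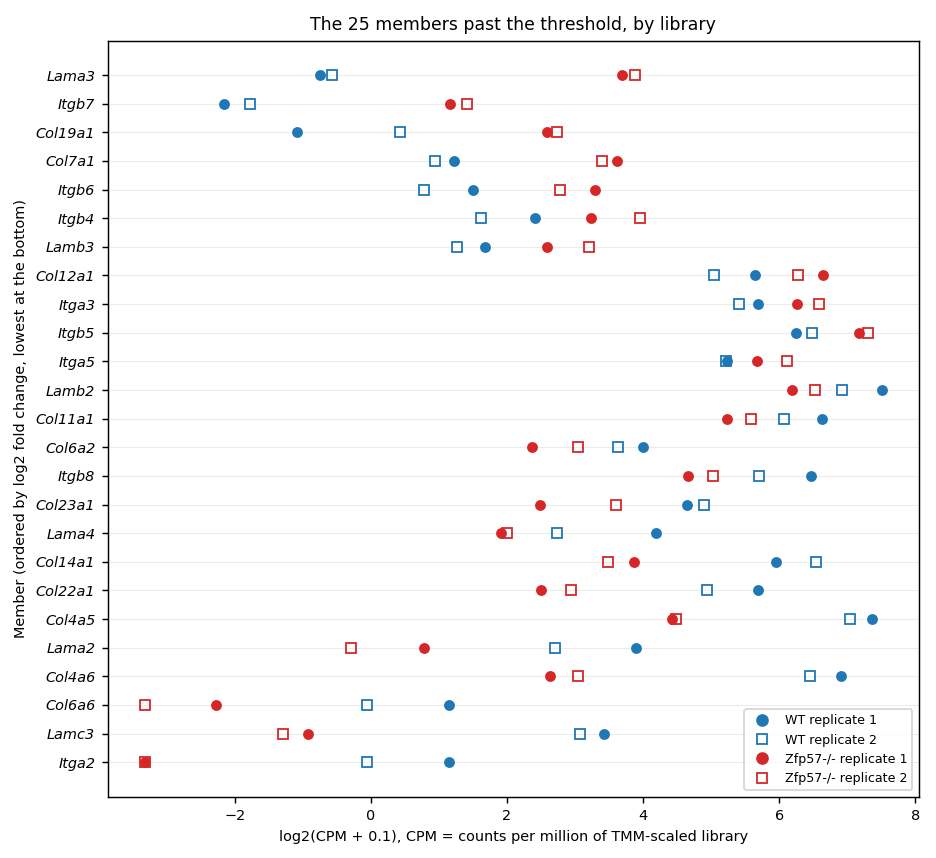
Level of the 25 members past the threshold in each library (x axis, log2 of CPM plus 0.1), ordered by log2 fold change. Blue marks are WT and red marks *Zfp57*-/- libraries, circles replicate 1 and squares replicate 2. Rows run from *Itga2* at the bottom (0 counts in both red libraries) to *Lama3* at the top. The colours are separated in every row, but the rows were picked by a test on these same libraries.

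Among the **collagens of the basement membrane network**, both tested X-linked chains fell. *Col4a6*, on chromosome X (141165403 to 141474076, GRCm38, minus strand), had 966 and 915 counts in WT and 57 and 80 in *Zfp57*-/- cells. The level fell from 104 ± 22.8 to 7.15 ± 1.46 CPM (SD, n = 2), a log2 fold change of -3.85 ± 0.26 (SE; adjusted p = 9.9e-06, edgeR). *Col4a5*, the neighbouring gene on the other strand (141475385 to 141689234), had 1322 and 1381 counts in WT and 199 and 218 in *Zfp57*-/- cells, with a log2 fold change of -2.76 ± 0.21 (adjusted p = 1.7e-05). Every WT library was several times above every *Zfp57*-/- library for both. The products of these genes assemble with each other into the alpha 5 and alpha 6 network of basement membranes. *Col4a3*, a partner of *Col4a5* in another network, was close to the detection limit with 1, 2, 4 and 4 counts.

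*Col4a5* and *Col4a6* start head to head, with 1308 bases between the gene models. The 120 bases before each start (RefSeq, GRCm38.p6) are given because the genes moved together, with the GC box GGGCGG, or its reverse complement CCGCCC, in capitals.
Col4a6 (chrX:141474077-141474196, minus strand): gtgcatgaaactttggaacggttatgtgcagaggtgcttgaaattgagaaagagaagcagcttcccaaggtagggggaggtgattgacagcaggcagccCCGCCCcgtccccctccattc
Col4a5 (chrX:141475299-141475418, plus strand): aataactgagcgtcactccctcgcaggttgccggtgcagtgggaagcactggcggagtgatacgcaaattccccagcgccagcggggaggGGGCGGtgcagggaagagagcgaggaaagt
Each window held 1 such box. Over 250 bases before the start, on both strands, 32.7% of all 32851 windows of the table had it, and so did 29 of the 61 windows of 55 members that matched by symbol. The box is thus a common sequence, and its presence here is a description.

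*Col7a1*, the chain of the anchoring fibrils that fasten epithelial basement membranes to the stroma, rose. It had 18 and 19 counts in WT and 113 and 102 in *Zfp57*-/- cells (log2 change 2.48 ± 0.38, adjusted p = 0.0012). With *Actb* as the scale the direction was kept, but the call was lost (adjusted p = 0.12). *Col17a1*, the hemidesmosomal transmembrane collagen, had 4 and 3 counts against 11 and 7 and did not pass (log2 fold change 1.27).

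Of 9 **fibril-associated collagens**, 2 rose and 2 fell. These chains bind to the surface of fibrils or to membrane junctions. *Col14a1* had 500 and 971 counts in WT and 135 and 109 in *Zfp57*-/- cells (log2 change -2.59 ± 0.26, adjusted p = 9.3e-05). *Col22a1*, known from tissue junctions such as that of muscle and tendon, had 415 and 320 against 52 and 74 counts (log2 fold change -2.63 ± 0.31, adjusted p = 0.00025). For both, each *Zfp57*-/- library was below each WT library.

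In the other direction, *Col12a1* had 403 and 344 counts in WT and 927 and 756 in *Zfp57*-/- cells (log2 change 1.10 ± 0.24, adjusted p = 0.0089). *Col19a1*, which is found at basement membrane zones and in brain, had 3 and 13 against 55 and 64 counts (log2 fold change 2.88 ± 0.60, adjusted p = 0.0062). The increase of *Col12a1* lost its call without *Zfp57*-/- replicate 1 and with *Actb* as the scale. That of *Col19a1* lost its call with *Actb* as the scale (adjusted p = 0.077), and its log2 fold change was 2.29 without WT replicate 1 and 4.01 without WT replicate 2. *Col9a1*, *Col9a2*, *Col9a3*, *Col16a1* and *Col20a1* did not pass, with log2 fold changes of 0.05, 0.05, 0.69, 0.50 and -0.42.

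The 11 **fibrillar collagens** had the highest summed level per length of the collagen groups, from which *Col4a1* and *Col4a2* were left out. Few passed the threshold, 1 of 11 against 27.6% of all tested genes. Only *Col11a1*, which in its trimers limits the width of thin fibrils, passed. It fell from 801 and 699 counts in WT to 349 and 470 in *Zfp57*-/- cells (log2 change -0.95 ± 0.24, adjusted p = 0.016). The call was lost without *Zfp57*-/- replicate 1 and with the correction for gene length. *Col3a1*, the partner of collagen I in soft connective tissue, had 4945 and 2927 against 4513 and 4042 counts, with a log2 fold change of 0.01 ± 0.32 (adjusted p = 0.98). Its groups overlapped, and the outcome rested on the WT replicates: without replicate 1 the log2 fold change was 0.66 (adjusted p = 5.9e-06) and without replicate 2 it was -0.45 (adjusted p = 0.0013). *Col2a1*, the main chain of cartilage collagen that is also made by early neuroepithelium, had 2241 and 2098 against 2798 and 3272 counts (log2 fold change 0.41 ± 0.21, adjusted p = 0.18). *Col5a1*, which nucleates fibrils, had 1904 and 1387 against 1333 and 1389 counts (log2 fold change -0.37 ± 0.26, adjusted p = 0.33).

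The chains of collagen I, the main collagen of bone and skin, varied more between WT replicates than between genotypes. *Col1a2* had 457 and 115 counts in WT and 65 and 94 in *Zfp57*-/- cells (log2 change -2.01 ± 0.69, adjusted p = 0.07). *Col1a1* had 480 and 136 against 655 and 437 counts (log2 fold change 0.68 ± 0.61, adjusted p = 0.46). On the CPM scale, WT replicate 1 was 5.15 and 4.58 times replicate 2 for these genes. The same order held for most of the class, since 27 of the 31 collagens with a mean count of at least 20 were higher in WT replicate 1 than in replicate 2, against 42.2% of all genes at that level. The median ratio of replicate 1 to replicate 2 was 1.68 for these collagens and 0.931 for all genes. Among *Zfp57*-/- libraries 15 of the 31 were higher in replicate 1. Without WT replicate 1, 11 collagens were higher and 8 lower in *Zfp57*-/- cells (20.8% and 21.8% of all genes). Without WT replicate 2, 4 were higher and 16 lower (26.6% and 25.2% of all genes).

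Of 6 tested **beaded-filament chains** (collagen VI, a microfibril around cells), 2 fell. *Col6a2* had 128 and 129 counts in WT and 47 and 80 in *Zfp57*-/- cells (log2 change -1.08 ± 0.34, adjusted p = 0.038). Its call was lost when either *Zfp57*-/- replicate was left out and with the correction for gene length. *Col6a6* had 17 and 9 against 1 and 0 counts, a WT to *Zfp57*-/- ratio of 26.8 (exact 95% interval for counting error 4.398 to 1097.5, adjusted p = 0.023), and this call was lost without *Zfp57*-/- replicate 2. *Col6a1*, which shares its trimer with *Col6a2*, had 221 and 214 against 150 and 132 counts and did not pass (log2 fold change -0.69 ± 0.25, adjusted p = 0.07). *Col6a3*, another chain of that trimer, had a log2 fold change of 0.16.

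Among the 4 **transmembrane collagens**, *Col23a1* fell from 202 and 310 counts in WT to 51 and 118 in *Zfp57*-/- cells (log2 change -1.64 ± 0.35, adjusted p = 0.007). The call was lost without *Zfp57*-/- replicate 1, and the value was -2.31 without *Zfp57*-/- replicate 2. *Col25a1*, a membrane collagen of neurons, had 195 and 81 against 72 and 55 counts (log2 fold change -1.24 ± 0.48, adjusted p = 0.08). Its value was -0.24 without WT replicate 1 and -1.86 without WT replicate 2, where it passed. *Col18a1*, the basement membrane collagen from which endostatin is released, had 2578 and 1989 against 1493 and 1666 counts (log2 fold change -0.62 ± 0.25, adjusted p = 0.091).

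The **laminins** changed in opposite directions chain by chain. Of 4 alpha chains, *Lama3* rose and *Lama2* and *Lama4* fell. *Lama3*, the alpha chain of the laminin of epithelial hemidesmosomes, had 4 and 6 counts in WT and 119 and 143 in *Zfp57*-/- cells. Its level rose from 0.534 ± 0.055 to 13.7 ± 1.30 CPM (SD, n = 2), a log2 fold change of 4.64 ± 0.44 (adjusted p = 6e-05). *Lama2*, the alpha chain of muscle and Schwann cell basement membranes, had 119 and 67 against 15 and 7 counts (log2 fold change -3.17 ± 0.57, adjusted p = 0.0029), with -2.48 without WT replicate 1 and -3.85 without *Zfp57*-/- replicate 1. *Lama4*, a chain of vessel walls, had 147 and 69 against 34 and 38 counts (log2 fold change -1.70 ± 0.48, adjusted p = 0.025), and its call was lost without WT replicate 1 (-0.83) or without *Zfp57*-/- replicate 1. *Lama5*, a broadly used chain of epithelial basement membranes, had 1318 and 1297 against 1854 and 2138 counts and did not pass (log2 fold change 0.54 ± 0.20, adjusted p = 0.076).

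Among beta chains, *Lamb3* and *Lamb2* moved apart. *Lamb3*, a partner of *Lama3*, had 25 and 24 counts in WT and 55 and 89 in *Zfp57*-/- cells (log2 change 1.48 ± 0.44, adjusted p = 0.031). *Lamb2*, a chain of synaptic, renal and pial basement membranes, had 1469 and 1273 against 680 and 904 counts (log2 fold change -0.87 ± 0.24, adjusted p = 0.023). Both calls were lost when either *Zfp57*-/- replicate was left out.

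Among gamma chains, *Lamc3* fell from 86 and 87 counts in WT to 4 and 3 in *Zfp57*-/- cells (log2 change -4.64 ± 0.53, adjusted p = 0.00019). This chain is found at the pial basement membrane of the cortex. *Lamc1*, the gamma chain of most laminins, had 17973 and 34505 against 32513 and 48177 counts (log2 fold change 0.61 ± 0.26, adjusted p = 0.11). Its groups overlapped before scaling, and the lowest *Zfp57*-/- library was above the higher WT library after scaling.

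Among the **integrin alpha chains**, those that bind laminin were followed first. *Itga3*, a receptor of the *Lama3* and *Lama5* laminins, rose from 414 and 444 counts in WT to 711 and 936 in *Zfp57*-/- cells (log2 change 0.88 ± 0.21, adjusted p = 0.012). The call was lost without *Zfp57*-/- replicate 2. *Itga6*, the alpha chain that joins *Itgb1* or *Itgb4*, had 1372 and 2174 against 2181 and 2313 counts and did not pass (log2 fold change 0.32 ± 0.19, adjusted p = 0.25), and *Itga7* had a log2 fold change of 0.46.

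Of the alpha chains that bind ligands with an RGD sequence, *Itga5*, the fibronectin receptor, rose from 304 and 388 to 473 and 675 counts (log2 fold change 0.68 ± 0.21, adjusted p = 0.04), with no call when either *Zfp57*-/- replicate was left out or by DESeq2's Wald test, and with a value of -0.01 with *Actb* as the scale. *Itgav*, the partner of *Itgb3*, *Itgb5*, *Itgb6* and *Itgb8*, had 1278 and 1355 against 1573 and 2004 counts (log2 fold change 0.38 ± 0.20, adjusted p = 0.20). *Itga8*, which also pairs with *Itgb1*, had 116 and 154 against 194 and 244 counts (log2 fold change 0.65 ± 0.24, adjusted p = 0.066).

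Among the collagen receptors, *Itga2* had 17 and 9 counts in WT and 0 in both *Zfp57*-/- libraries. Taking 3 counts per library as the floor, its level was at least 4.72-fold lower (adjusted p = 0.013). *Itga1*, *Itga10* and *Itga11* had log2 fold changes of 0.20, 0.25 and -1.19 and did not pass. Of the leukocyte chains, *Itgal* had 0 and 1 counts against 7 and 8 (adjusted p = 0.061). *Ptprc*, *Gata1* and *Tyrobp* were at 0 in WT, and the 8 blood markers summed to at most 4.80 CPM in any library.

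The **integrin beta chains** had 5 calls among 8, with 4 higher and 1 lower, against 13% higher and 14.6% lower among all tested genes. *Itgb4*, which pairs with *Itga6* in hemidesmosomes and binds keratin rather than actin, had 42 and 31 counts in WT and 87 and 151 in *Zfp57*-/- cells (log2 change 1.61 ± 0.41, adjusted p = 0.016), and its call was lost without *Zfp57*-/- replicate 2. *Itgb6*, the epithelial partner of *Itgav*, had 22 and 17 against 90 and 66 counts (log2 fold change 1.93 ± 0.45, adjusted p = 0.012), and its call was lost without *Zfp57*-/- replicate 1. *Itgb5*, another *Itgav* partner that binds vitronectin, had 610 and 939 against 1335 and 1548 counts (log2 fold change 0.87 ± 0.19, adjusted p = 0.009), and its call was lost when either *Zfp57*-/- replicate was left out. These 3 chains rose, and with *Actb* as the scale all 3 kept the direction but not the call.

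*Itgb8*, the *Itgav* partner of radial glia and astrocytes that releases active transforming growth factor beta, fell. It had 715 and 542 counts in WT and 235 and 317 in *Zfp57*-/- cells (log2 change -1.28 ± 0.27, adjusted p = 0.0073). *Itgb7*, a beta chain of lymphocytes, had 1 and 2 against 20 and 25 counts, a *Zfp57*-/- to WT ratio of 14.6 (exact 95% interval for counting error 4.68 to 73.3, adjusted p = 0.0082). *Itgb1*, which pairs with most alpha chains, had 4326 and 5114 against 5336 and 5699 counts and a log2 fold change of 0.17 ± 0.18 (adjusted p = 0.52). *Itgb3* had 19 and 21 against 56 and 39 counts (log2 fold change 1.20 ± 0.48, adjusted p = 0.093).

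**Levels per length** allowed genes to be compared with each other, as CPM divided by the length of the gene model in kilobases. *Lamc1* had the highest level of all members, with 334 ± 91.3 in WT and 509 ± 123 in *Zfp57*-/- cells (SD, n = 2). *Itgb1* came second, at 125.4 ± 8.23 and 142 ± 1.69. *Col3a1* followed at 45.4 ± 24.0 and 45.7 ± 5.13. Within the replicate spread, *Col3a1*, *Col18a1* (36.3 ± 13.03) and *Col2a1* (25.9 ± 5.91) overlapped in WT cells. *Itgb5* was at 23.2 ± 2.81 in WT and 42.4 ± 2.97 in *Zfp57*-/- cells, within the spread of *Col3a1* in both genotypes. *Col4a5* was at 22.0 ± 3.35 in WT cells, close to *Col5a1* (21.7 ± 8.61), and at 3.25 ± 0.10 in *Zfp57*-/- cells. The chains with the largest relative increase stayed low. For the class of integrin alpha chains the highest were *Itga6* (20.9 ± 2.95 and 26.1 ± 0.18), *Itgav* (13.4 ± 1.90 and 17.4 ± 2.37) and *Itga3* (8.20 ± 1.10 and 15.1 ± 2.40).

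**Figure D3:**
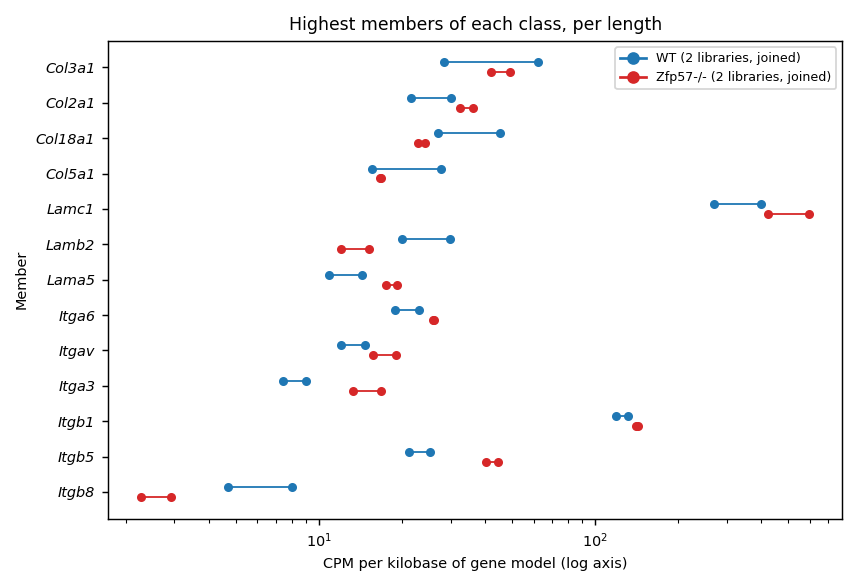
Levels of the highest members of each class (x axis, CPM per kilobase of gene model, log axis). Points are the 2 libraries of a genotype, joined by a line. *Lamc1* and *Itgb1* stand above 100 in all libraries. The lines of the genotypes overlap for *Col3a1* and *Col5a1* and are separate for the other members drawn, whether or not these passed the threshold.

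The **partners of these chains** were counted from lists of matrix and adhesion genes. Of 16 basement membrane partners 2 were higher and 5 lower. *Nid2*, which links laminin to collagen IV, rose (log2 fold change 1.13, adjusted p = 0.0028), as did *Sparc*, a collagen-binding protein (1.26, adjusted p = 0.038). *Fras1* and *Frem2*, of the complex that holds embryonic epithelia to their basement membrane, fell (-1.92 and -1.80, adjusted p = 0.0012 and 0.0036). Of 28 genes for collagen processing and cross-linking 2 were higher and 4 lower. *Pcolce2*, an enhancer of procollagen cleavage, and *Loxl4*, a cross-linking oxidase, rose (1.95 and 2.03, adjusted p = 0.0099 and 0.037), and *Adamts3*, a procollagen protease, and *Loxl2*, another cross-linking oxidase, fell (-4.29 and -1.51, adjusted p = 5.4e-05 and 0.0023).

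Of 18 tested other integrin ligands 9 were higher and 4 lower. *Spp1*, which encodes osteopontin, and *Thbs1*, which encodes a thrombospondin, rose (4.39 and 1.82, adjusted p = 2.2e-05 and 0.00041), and *Edil3* and *Vtn*, ligands of *Itgav* integrins, fell (-4.08 and -3.00, adjusted p = 1.2e-05 and 0.00023). Of 24 integrin adaptors and kinases 8 were higher and 0 lower by edgeR's quasi-likelihood test (1 lower at an unadjusted p under 0.05, 0 by DESeq2), among them *Ptk2b*, a kinase related to focal adhesion kinase (3.00, adjusted p = 0.00011), and *Actn4*, an actin cross-linker (1.17, adjusted p = 0.0018). These counts stand against 13% higher and 14.6% lower among all tested genes.

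Levels of cell type markers moved beside these values. The 12 mesenchyme markers summed to 527 and 429 CPM in WT and 272 and 366 CPM in *Zfp57*-/- cells (4 lower and 0 higher by edgeR, by its unadjusted p and by DESeq2), and the 10 muscle markers to 75.3 and 169 against 793 and 729 CPM (7 higher, *Myod1* at 0 in WT). The 12 markers of primitive and parietal endoderm, cells that build a thick basement membrane, summed to 916 and 1082 against 1176 and 1662 CPM (3 higher, 1 lower). The 10 endothelial markers summed to 362 and 251 against 261 and 310 CPM (2 higher, 1 lower), and the 6 chondrocyte markers to 14.6 to 26.0 CPM over the libraries (1 higher, *Chad* at 0 in both genotypes). The 6 neural crest markers summed to 103 and 134 against 48.5 and 51.5 CPM (2 higher, 3 lower), and the 10 neural progenitor markers to 1015 and 969 against 470 and 487 CPM (7 lower and 0 higher by edgeR, with 1 higher at an unadjusted p under 0.05 and 0 by DESeq2). The part of these cells in the values of the matrix genes was not tested.

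**Allelic ratios**, maternal/(maternal + paternal) reads, compared the reads of the JF1 and the B6 copy of a gene. An absent or extra copy and unequal use of the copies cannot be told apart in these ratios. Since all cells had a JF1 mother and a B6 father, parent of origin and strain cannot be told apart in these ratios. Of 75 autosomal members 44 had at least 10 normalized allelic counts in both WT replicates. In WT cells 20 of the 44 differed between alleles (adjusted p below 0.05, edgeR), 15 with more maternal and 5 with more paternal reads, against a background of 23.6% of 10977 genes tested. Past the limits of 0.33 and 0.67 lay 9 of the 44, against 11.9% of all tested genes. The difference between alleles depended on the genotype for 11 of the 44, against 14.5%. The maternal share rose in 5 and fell in 6 of these, and 4 of the 11 also differed in bulk level. The median ratio of the tested members was 0.51 in WT and 0.52 in *Zfp57*-/- cells.

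**Figure D4:**
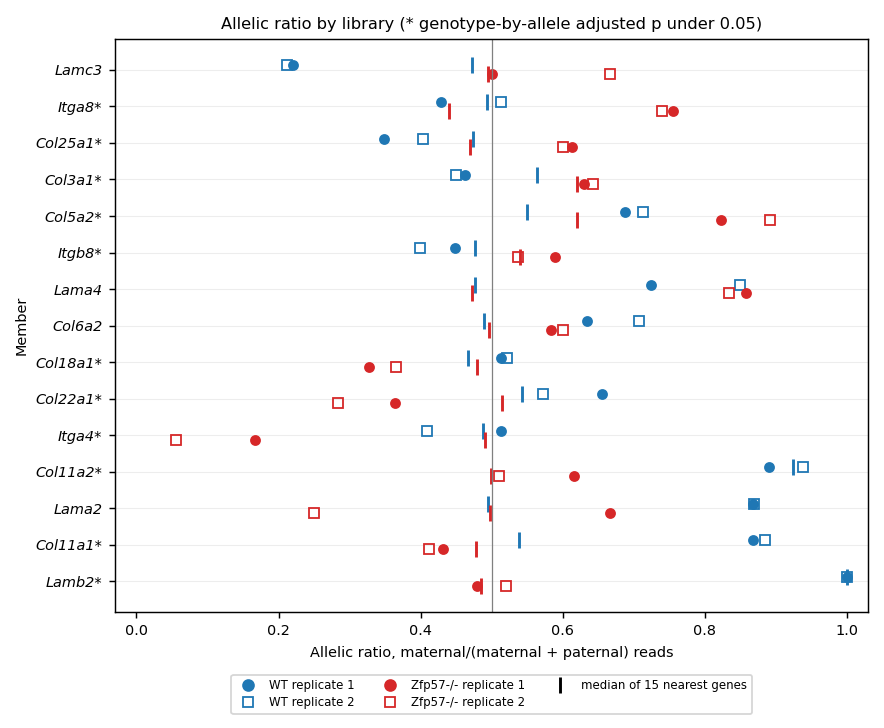
Allelic ratio of 15 members with a WT ratio past 0.33 or 0.67 or with a genotype-by-allele difference (x axis, share of maternal reads), in each library. Vertical ticks are medians over the 15 nearest genes whose libraries each held at least 10 allelic reads. *Lamb2* is at 1 in both WT libraries together with its neighbours and near 0.5 in *Zfp57*-/- cells.

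*Lamb2*, on chromosome 9 (108479736 to 108490530), had only maternal reads in WT cells. There were 606 and 511 maternal and 0 paternal reads, which allows a paternal share of up to 0.269% (3 reads). In *Zfp57*-/- cells the ratio was 0.48 and 0.52, with 129 and 187 maternal and 140 and 173 paternal reads (genotype-by-allele adjusted p = 1.5e-37). The 15 nearest genes had a median ratio of 1.00 in WT and 0.48 in *Zfp57*-/- cells, so that *Lamb2* did not stand apart from its surroundings. *Col7a1*, 463 kb further along the same chromosome, had 14 maternal and 1 paternal reads in WT and 48 and 63 in *Zfp57*-/- cells, too few in WT to be tested.

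A similar relation to neighbours was seen for *Col11a2*, a fibrillar chain on chromosome 17. Its ratios were 0.89 and 0.94 in WT and 0.62 and 0.51 in *Zfp57*-/- cells (adjusted p = 7.4e-06), and those of its neighbours were 0.92 and 0.50. *Col11a1*, its partner on chromosome 3, had 0.87 and 0.88 in WT and 0.43 and 0.41 in *Zfp57*-/- cells (adjusted p = 2e-16). Here the neighbours were at 0.54 and 0.48. Its maternal reads were 223 and 168 against 57 and 70, and its paternal reads 34 and 22 against 75 and 100. Maternal reads were thus fewer and paternal reads more in *Zfp57*-/- cells, while the bulk level fell.

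The adjacent fibrillar genes *Col3a1* and *Col5a2* on chromosome 1 shifted to the maternal allele. *Col3a1* had ratios of 0.46 and 0.45 in WT and 0.63 and 0.64 in *Zfp57*-/- cells (adjusted p = 6.6e-17). *Col5a2* had 0.69 and 0.71 against 0.82 and 0.89 (adjusted p = 8.2e-05). The chromosome as a whole moved in the same direction, from a median of 0.49 to 0.62 over 616 genes, and 2 of the 6 tested members on it passed. Near *Col3a1* the neighbours went from 0.56 to 0.62.

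Members on other chromosomes shifted while their neighbours stayed near equal reads of both alleles. *Col18a1* had 0.51 and 0.52 in WT and 0.33 and 0.37 in *Zfp57*-/- cells (adjusted p = 8.1e-11; neighbours 0.47 and 0.48). *Col22a1* had 0.66 and 0.57 against 0.36 and 0.28 (adjusted p = 0.00026; neighbours 0.54 and 0.51), on 86 reads in *Zfp57*-/- cells, and the call was lost without *Zfp57*-/- replicate 2. *Itga8* had 0.43 and 0.51 against 0.75 and 0.74 (adjusted p = 0.00031; neighbours 0.49 and 0.44), with no call by DESeq2. These 3 differences were larger than the gap between replicates of either genotype. The members were picked by a test on the same libraries, so this is no further support.

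Smaller or less deeply read differences were those of *Itgb8*, *Col25a1* and *Itga4*. *Itgb8* had 0.45 and 0.40 in WT and 0.59 and 0.54 in *Zfp57*-/- cells (adjusted p = 0.024; neighbours 0.48 and 0.54). *Col25a1* had 0.35 and 0.40 against 0.61 and 0.60 (adjusted p = 0.027; neighbours 0.47 and 0.47). *Itga4*, a chain of fibronectin and vascular adhesion receptors, had 0.51 and 0.41 against 0.17 and 0.06 (adjusted p = 0.039; neighbours 0.49 and 0.49), on 24 reads in *Zfp57*-/- cells. Each of these 3 calls was lost without WT replicate 1 and without WT replicate 2 and by DESeq2, those of *Itgb8* and *Col25a1* also without *Zfp57*-/- replicate 1, and that of *Itga4* without *Zfp57*-/- replicate 2.

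Several laminins had unequal reads of the alleles in WT cells with no genotype-by-allele call. *Lama2* had ratios of 0.87 and 0.87 in WT (adjusted p = 3.8e-07) and only 10 reads in *Zfp57*-/- cells, and its WT call was lost without WT replicate 1. *Lamc3* was the 1 member past the paternal limit, with 0.22 and 0.21 (adjusted p = 3.9e-05) and 5 reads in *Zfp57*-/- cells, a call lost without either WT replicate and by DESeq2. *Lama4* had 0.72 and 0.85 against 0.86 and 0.83. Neighbouring genes of these 3 laminins were between 0.47 and 0.50 in both genotypes. *Col6a2* lay just past the limit, with 0.63 and 0.71 in WT and 0.58 and 0.60 in *Zfp57*-/- cells, and was not called without either WT replicate or by DESeq2. The X-linked genes *Col4a5* and *Col4a6* had 639, 630, 86 and 104 and 588, 545, 34 and 47 maternal reads over the libraries and no paternal read, as male cells carry the maternal X alone.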

How the data were processed

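The analysis covered RNA-seq of 2 WT and 2 *Zfp57*-/- day 12 cultures. The authors used Trimmomatic 0.36 for trimming and STAR 2.5.4a for unique alignment to GRCm38, and deposited raw strand-specific counts per GENCODE vM20 gene made by featureCounts (Subread 1.6.0). For the allele table, reads mapped to a SNP-masked genome were split with SNPsplit, and counts per gene and allele were deposited. Some 36.1% to 37.0% of bulk counts were allelic. The bulk table also gives gene length, used for CPM per kilobase.

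Here, genes with more than 8 summed counts were tested with edgeR 4.0.16 (robust quasi-likelihood, TMM; R 4.3.3). The allele model held library terms and 1 allele effect for each genotype. SE is the log2 fold change divided by the square root of F. On simulated counts, 200 well-counted genes were changed 4-fold, with the same spread set for all genes and libraries. Of these, 100% were found by the bulk test (10 false calls, 20048 genes) and 94.5% by the allele test (4 false calls, 10968 genes). Members with low counts, smaller changes and the unequal replicate spread of the real libraries were not covered by it. Intervals cover counting error only.

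Members, partner lists and marker lists were chosen with earlier results of these data known. *Cyr61*, *Ctgf* and *Nov* were matched through their newer symbols. Members are named with full values if past the bulk threshold with the smallest adjusted p of their class (10 collagens, 6 laminins, 8 integrin alpha, 4 integrin beta chains), among the highest per length (4 collagens, 3 of each other class), or different by allele. Other members have a fold change only, and 1 tested member is counted but not reported here. Values of *Col1a1*, *Col1a2*, *Col6a1*, *Col17a1*, *Col4a3*, *Itgal*, *Itgb3* and *Itgb4* were added after they had been seen. Of each partner list, the 2 smallest adjusted p in each direction are named. Alternatives were DESeq2 1.42.0, other scalings, filters and thresholds, a length correction, a replicate block and leaving out each library.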

Additional observations from a re-analysis of the deposited data

Results flagged for a closer look

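The allelic ratio of 11 members differed between the genotypes by the genotype-by-allele test. Given as *Zfp57*-/- minus WT mean ratio, the difference was -0.50 for *Lamb2*, -0.45 for *Col11a1*, -0.35 for *Col11a2*, -0.35 for *Itga4*, -0.29 for *Col22a1* and -0.17 for *Col18a1*. It was 0.28 for *Itga8*, 0.23 for *Col25a1*, 0.18 for *Col3a1*, 0.16 for *Col5a2* and 0.14 for *Itgb8*. With 2 libraries per genotype, no test for a library far from the others was made.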

How the results depend on the processing

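Of the 25 members past the bulk threshold, 8 kept their direction and their call under all alternatives (*Col4a5*, *Col4a6*, *Col14a1*, *Col22a1*, *Lama2*, *Lama3*, *Lamc3* and *Itgb8*). Members higher in *Zfp57*-/- cells numbered 1 with *Actb* as the scale, 18 with the length correction and 6 at an adjusted p of 0.01, against 11. Those lower numbered 8 at 0.01, against 14. Of all genes, 6.3% were higher and 8.21% lower at 0.01. With *Actb*, higher counts were 0 for collagens, 1 for laminins, 0 for integrin alpha and 0 for integrin beta chains. With the length correction they were 5, 4 and 5 for collagens, laminins and integrin alpha chains. At 0.01, 5 collagens and 2 laminins were lower, 1 laminin and 2 integrin beta chains higher, and 0 integrin alpha chains passed in either direction. Higher integrin alpha chains numbered 1 by DESeq2 and 0 at a minimum log2 change of 1, against 11.2% and 9.02% of all genes. With no filter 4 laminins were higher (10.6% of all genes). With over 40 summed counts 0 integrin alpha chains were lower (17.7% of all genes), since *Itga2* was not tested.

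Leaving out 1 library in turn left a lone sample that was assumed to vary like the other group. It gave 6 to 24 members higher and 10 to 24 lower, with 2 to 11 and 6 to 16 collagens, 1 to 5 and 2 to 4 laminins, 0 to 5 and 1 to 3 integrin alpha chains, and 2 to 5 and 1 to 1 integrin beta chains. Over all genes the same fits called 6.7% higher and 8.12% lower at the least and 26.6% and 25.2% at the most. Allele differences in WT numbered 10 to 21 and genotype-by-allele differences 8 to 10. The shares of all genes called by these allele tests moved between the same fits as well. The ranges are therefore not a property of the members alone.

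Replicate numbers did not pair the samples, since no label ties them and only 2 pairs exist (correlation of same-numbered deviations 0.157 over 11736 genes). With a replicate block 16 members were higher and 18 lower, with 5 laminins higher, against 17.4% and 17.5% of all genes. By allele, 7 WT differences and 4 genotype-by-allele differences passed with the block, against 20 and 11. Of all genes tested by allele, 13.1% and 8.25% passed with it. DESeq2 on the allele counts gave 9 and 7 members, against 10.7% and 7.63% of all genes.

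Signs reversed with *Actb* as the scale for *Col2a1* (-0.36), *Col3a1* (-0.84), *Itga5* (-0.012), *Itga6* (-0.32), *Itga8* (-0.021), *Itgav* (-0.36), *Itgb1* (-0.54) and *Lama5* (-0.21). *Col3a1*, close to 0, was at -0.016 with upper-quartile scaling and -0.013 with over 40 counts, and *Col11a2* at 0.043 with the length correction. Leaving out 1 library gave -0.45 to 0.66 for *Col3a1*, -0.22 to 0.027 for *Col11a2*, -0.73 to 0.079 for *Col5a1* and -1.12 to 0.41 for *Col5a2*, each at its lowest without WT replicate 2. Members short of the threshold that passed it without WT replicate 1 included *Col2a1*, *Itga8*, *Itgav* and *Lama5*, and without WT replicate 2 *Col5a1*, *Col18a1*, *Itga4*, *Itga6*, *Itga8*, *Lama5* and *Lamc1*. The causes were not tested. Counts under 20 per library limit the precision of the lowest members.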
